A study of Rattus norvegicus with 6 samples.

Results

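Of the 14145 circRNA probes of the rat circRNA array, 140 gave a signal well above background on all 3 arrays of AD hippocampus and on none of the 3 arrays of sham hippocampus. They were chosen by the detection flag that the scanner software sets for each spot, after 12 probes with an outlier flag on any array had been left out, so that 14133 probes were considered. The detection flag of the AD and sham arrays is therefore the rule and not a result, and every AD against sham value given for these probes, counts past a limma threshold included, describes the contrast that chose them and is no independent test. The AD samples came from adult male Sprague Dawley rats whose cerebral ventricles had received oligomers of Aβ1-42, the amyloid peptide that accumulates in Alzheimer's disease, and the sham samples from rats given vehicle into both lateral ventricles. The samples are bulk hippocampal tissue, 3 per group, and the sources used here do not state that each came from a separate rat. Injected peptide models exposure to amyloid oligomers and not their slow build-up over life. In bulk tissue, fewer cells of a type and less RNA per cell cannot be told apart.

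Circular RNAs are loops made when the end of an exon is joined back to the start of the same or an upstream exon. They have no free ends, so they resist RNase R, which degrades linear transcripts from their ends and was applied here before labelling. They are abundant in brain, where many come from genes expressed in neurons, and are often present at a low copy number. On an array of this type each circRNA has a probe meant to span its back-splice junction, and a dim probe is called detected or not by setting its spot against the local background. No table held for these arrays links a probe to the name, host gene or sequence of its circRNA. The probes are therefore described by their signals, and the pair with the largest fold bounds is given by probe identifier.

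Before the signals of these probes are read, the arrays need a short description. Between 10864 and 11077 circRNA probes were well above background on the sham arrays and between 11074 and 12021 on the AD arrays, the most on AD 2. Each circRNA probe had 1 spot per array, and no spot reached saturation. The 3 AD arrays shared a scan time with sham 1 and sham 2 and these 5 were taken as 1 slide, while sham 3 was scanned apart, with a median local background of 28 against 16 to 17 scanner units elsewhere. The array code in the file headers, which reads as a row and a column, gave 1 row for all AD arrays and another for all sham arrays, so a row effect and the group cannot be told apart. Of the 10 neuronal marker genes looked for among the named probes of linear transcripts, the arrays carried Map2, Dlg4 and Ptk2b, and all 3 were detected on all 6 arrays. No marker that would set hippocampus apart from other brain tissue was among the named probes.

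Detection on exactly 3 of the 6 arrays was found for 501 circRNA probes, spread over 20 possible patterns. The pattern with the 3 AD arrays was the most frequent, with 140 probes or 27.9% of the 501, and the opposite pattern, with the 3 sham arrays, held 22. The other 19 patterns held 2 to 77 probes each, with a median of 12. The most frequent of them joined AD 2 with sham 2 and sham 3, with 77 probes. It was followed by AD 1, AD 2 and sham 1 with 40, AD 2, AD 3 and sham 2 with 37, and AD 2, AD 3 and sham 1 with 36. Arrays did not enter these patterns evenly. AD 2 was part of the pattern for 82.0% of the 501 probes, AD 1 for 53.5% and AD 3 for 51.9%, against 44.7% for sham 2, 36.1% for sham 3 and 31.7% for sham 1. AD 2 was also the array with the most detected probes.

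**Figure D1:**
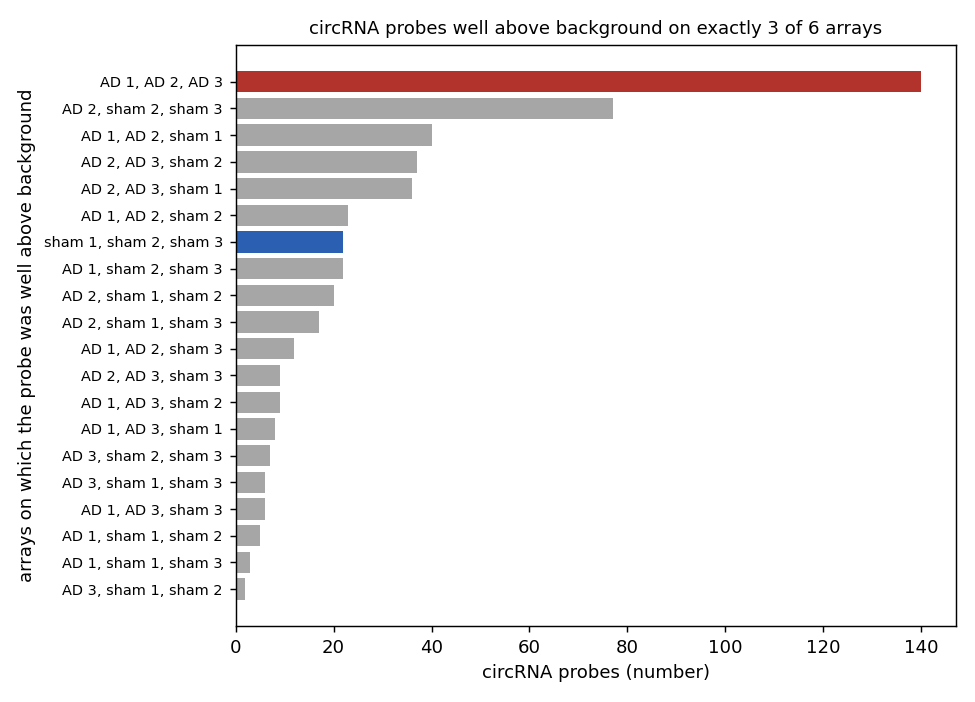
Number of circRNA probes (x axis) for each of the 20 patterns of detection on exactly 3 of the 6 arrays (y axis), with the AD pattern in red, the sham pattern in blue and mixed patterns in grey. The AD pattern holds 140 probes, the next pattern 77 and the sham pattern 22.

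More probes were detected on all 3 AD arrays and on 1 sham array than on the AD arrays alone. There were 321 such probes, and in 225 of them the sham array was sham 1, in 75 sham 2 and in 21 sham 3. Without sham 1, the probes detected on all 3 AD arrays and on neither sham 2 nor sham 3 numbered 365 instead of 140, and the probes of the opposite kind, detected on sham 2 and sham 3 and on no AD array, numbered 83. Without sham 3, which leaves the arrays of the shared slide, the numbers were 161 and 38. A further 169 probes were detected on 2 AD arrays and on no sham array. In all, 10528 probes were detected on all 3 AD arrays and 9885 on all 3 sham arrays, so the 140 probes make up 1.33% of the former and the 22 sham probes 0.223% of the latter.

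The 140 probes were dim on every array. Their processed signal, which is the spot intensity after the scanner software has subtracted background, was 8.94 to 126 on AD 1, with a median of 13.5. On AD 2 it was 10.1 to 70.3, with a median of 16.7, and on AD 3 it was 9.96 to 67.3, with a median of 13.3. The 3 AD arrays had medians close to each other and a few bright probes each. On the sham arrays the signal of these probes was 1.98 to 10.1 on sham 1, with a median of 7.63. It was 2.62 to 13.9 on sham 2, with a median of 8.35, and 2.23 to 11.8 on sham 3, with a median of 7.10. Every AD median was above every sham median, and the ranges of the groups as a whole overlapped between 8.94 and 13.9. Averaged over the AD arrays, 113 of the 140 probes had a signal under 20 and 1 had a signal over 50. The median of this average was 14.6, against 55.5 over the 10528 probes detected on all 3 AD arrays. Among all circRNA probes of an array, the 140 stood at a median percentile of 26.2 to 30.9 on the AD arrays and of 12.4 to 17.4 on the sham arrays.

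**Figure D2:**
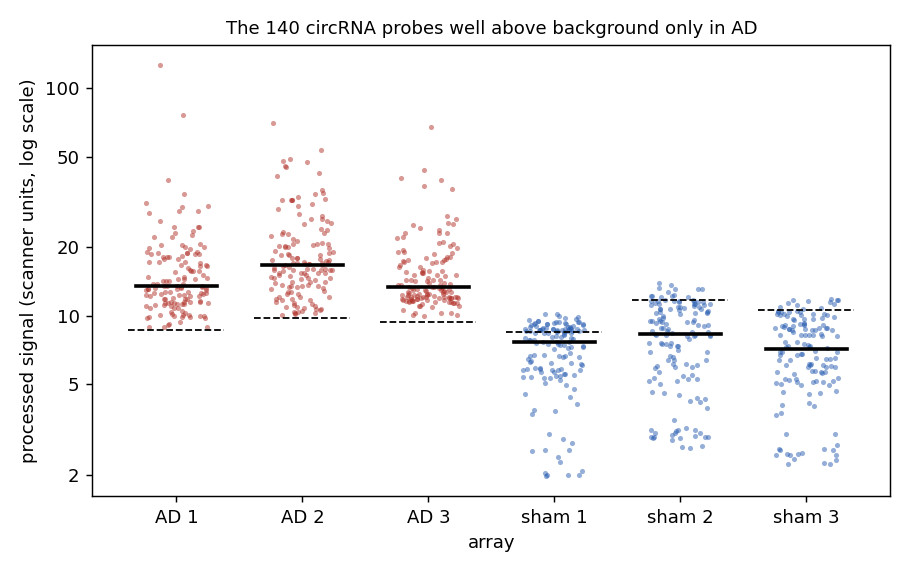
Processed signal in scanner units (y axis, log scale) of the 140 probes on each array (x axis), with a point per probe, AD in red and sham in blue, a solid bar at the median and a dashed line at the lowest signal that was well above background on that array. The AD medians are 13.3 to 16.7 and the sham medians 7.10 to 8.35, and many sham points lie near or above the dashed line.

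Most of these probes lay close to the detection limit on both sides. The limit of an array is taken here as the lowest circRNA signal that was well above background on it, which was 8.63, 9.80 and 9.38 on AD 1 to AD 3 and 8.51, 11.8 and 10.6 on sham 1 to sham 3. Since the software sets the flag from the background around each spot, a spot over this limit can still be called not detected. The weakest of a probe's 3 AD signals was 1.03 to 4.31 times the limit, with a median of 1.31. It was under 1.2 times the limit in 39 probes and under 1.5 times in 97, and in 18 it was at least 2 times the limit, a share of 12.9% against 71.7% of all 11580 tested circRNA probes. The strongest of the 3 sham signals had a median of 0.983 times the limit of its array, and in 63 of the 140 probes it was at or over that limit. In 4 probes all sham signals lay under 0.5 of the limit. On the scaled signal sham 1 was the highest of the sham arrays in 98 probes, sham 3 in 27 and sham 2 in 15. A weaker flag of the same software marks a signal that is positive and significant against background. By this flag 113 of the 140 probes, or 80.7%, had signal on all 3 sham arrays, 26 on 1 or 2 of them and 1 on none. Most circRNA probes pass it. Of the 14133 probes considered, 12877 had it on all 3 sham arrays, so nothing particular to the 140 is read from this count.

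The probes nearest the rule show how small the steps across it were. Of those inside it, the probe with the weakest AD signal had 15.7, 10.1 and 10.1 on AD 1 to AD 3, where AD 2 was 1.03 times its limit. Its sham signals were 5.38, 6.94 and 8.87. Of those outside it because 1 sham array detected them, the nearest had 12.1 on sham 2, which was 1.03 times the limit there. Its AD signals were 9.22, 14.1 and 12.2. Of those outside it because 1 AD array did not detect them, the nearest had 11.02 on AD 3, which was 1.17 times the limit and above the lowest member there, with 13.0 and 15.5 on AD 1 and AD 2 and 3.33 to 3.87 on the sham arrays.

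How often a spot near the limit is called detected can be read from the probes of linear transcripts, which the rule did not use and which are printed in 10 spots per array. Over their 62 probes on 6 arrays, a probe whose spots averaged 1 to 1.5 times the limit was found 30 times, in 15 different probes. Of the 288 spots, 193 or 67.0% were well above background, and in 26 of the 30 cases some spots of the same probe on the same array were detected and others were not. Between 1.5 and 2 times the limit 144 of 145 spots were detected, between 2 and 5 times all were, and between 0.5 and 1 times 59 of 760 or 7.76%. The SD between repeat spots on the log2 scale had a median of 0.25 between 1 and 1.5 times the limit, 0.46 below the limit and 0.09 between 3 and 5 times. On the weakest AD array, 97 of the 140 circRNA probes had a spot at 1 to 1.5 times the limit. Linear probes whose spots averaged in this range mostly had repeat spots with differing flags. The measures are unlike, since a circRNA probe has 1 spot and the 140 were chosen as detected. The shares of the linear probes were therefore not applied to the 140.

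**Figure D3:**
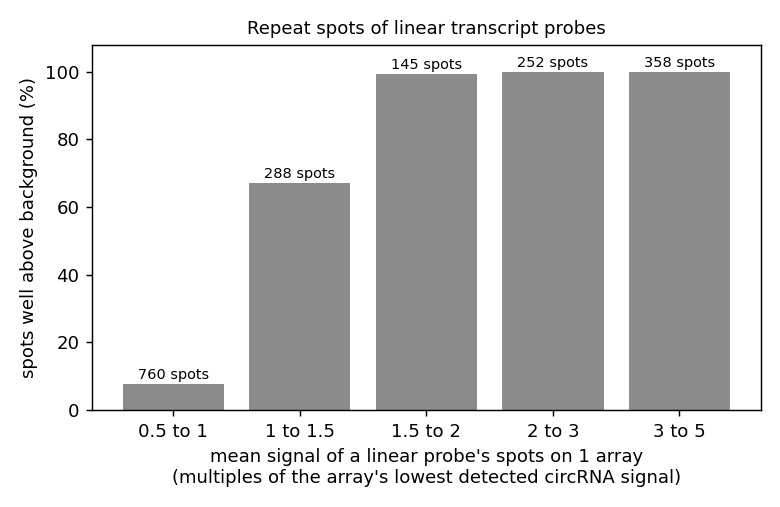
Share of the repeat spots of linear transcript probes that were well above background (y axis, percent), by the mean signal of the probe's spots on an array (x axis, in multiples of that array's limit), pooled over the 6 arrays. The share is 67.0% of 288 spots between 1 and 1.5 times the limit and 99.3% or more above 1.5 times.

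Because the software called these probes well above background on no sham array, the fold between the groups is given as a bound. Each array was scaled by its 75th percentile, and the mean log2 level of the AD arrays was set against the sham mean with every sham signal under the limit raised to it. Over the 140 probes this bound was 1.14-fold to 7.42-fold, AD over sham, with a median of 1.57-fold. It holds for this scaling and this limit only. The bound reached 1.5-fold in 82 probes, 2-fold in 32 and 3-fold in 11. With the 5th percentile of the detected signals as the limit in place of the lowest, the median bound was 1.15-fold, 112 probes had a bound of at least 1, and 15 reached 2-fold. The bound followed the margin over the limit, as its construction implies. Its median was 1.31-fold in the 39 probes whose weakest AD signal was under 1.2 times the limit, 1.53-fold in the 58 at 1.2 to 1.5 times, 1.94-fold in the 25 at 1.5 to 2 times and 3.11-fold in the 18 at 2 times or more.

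**Figure D4:**
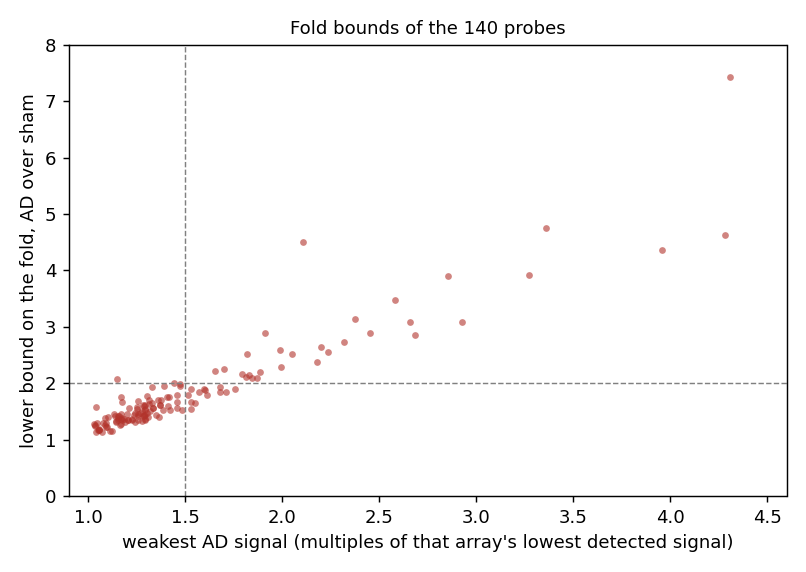
Lower bound on the fold of AD over sham (y axis) against the weakest of the 3 AD signals in multiples of that array's limit (x axis), with a point for each of the 140 probes and dashed lines at 2-fold and at 1.5 times the limit. The bound rises with the margin over the limit, from 1.14-fold to 7.42-fold, and 2 of the 97 probes left of 1.5 times lie above 2-fold.

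The probe with the largest bound was ASCRPR003430. Its processed signal was 126, 42.2 and 67.3 on AD 1 to AD 3 and 9.95, 10.4 and 6.41 on sham 1 to sham 3. All 3 AD arrays lay above all sham arrays, with AD 1 far above AD 2, and the sham 1 signal was itself 1.17 times its limit although not called detected. The AD arrays had a scaled log2 level of -0.45 ± 1.097 (SD, n = 3), the sham arrays one of -3.65 ± 0.56 (SD, n = 3), a difference of 3.20 (SE 0.55). Its bound on the scaled processed signal was 7.42-fold, AD over sham. Without AD 1 the bound was 5.08-fold, without AD 2 it was 10.9-fold, and with the 5th percentile as the limit 5.72-fold. Its place among all circRNA probes was the 81.4th percentile on AD 1, the 50.7th on AD 2 and the 68.9th on AD 3.

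ASCRPR013671 was second, with signals of 29.0, 70.3 and 39.6 on AD 1 to AD 3 and of 5.52, 11.01 and 9.15 on sham 1 to sham 3. Here AD 2 was the brightest array and the groups were again apart. The scaled log2 level of this probe averaged -1.17 ± 0.34 over the AD arrays and -3.73 ± 0.15 over the sham arrays (SD, n = 3 each), a difference of 2.56 (SE 0.25). Its bound on the scaled processed signal was 4.75-fold, AD over sham. Leaving out any of the 6 arrays gave bounds of 4.203-fold to 5.29-fold, and the 5th percentile as the limit 3.48-fold.

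The 11 probes with a bound of at least 3-fold, both of these included, had signals of 20.5 to 126 on AD 1, 20.6 to 70.3 on AD 2 and 24.2 to 67.3 on AD 3. On the sham arrays they lay at 5.34 to 10.1, 3.06 to 11.5 and 5.02 to 10.5. In none of the 11 did the groups overlap on the scaled log2 signal. Over all 11570 circRNA probes with 6 unflagged values, 15.3% had every AD array above every sham array. The 11 were picked by this same contrast, so nothing is read from their separation. The smallest distance between the lowest AD and the highest sham level was 0.68 on the log2 scale. In the log2 values made by the authors, the AD minus sham difference of the 11 was 0.71 to 1.70.

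On the scaled log2 signal the AD arrays all lay above the sham arrays in 119 of the 140 probes, where 15.3% of all 11570 circRNA probes with 6 unflagged values did so. The rule used this contrast, so nothing is read from the difference of these shares. In all 21 overlapping probes AD 2 was the lowest AD array, and the highest sham array was sham 1 in 18 and sham 3 in 3. The scanner software also gives an error for each spot. With that error subtracted from each AD signal and added to each sham signal, 55 of the 140 probes still had all AD arrays above all sham arrays on the scaled signal, where 7.63% of the 11570 did so. On the unscaled signal 37 of the 140 did so, against 7.97%. The 55 comprised all 18 probes at 2 times the limit or more, 19 of the 25 at 1.5 to 2 times and 18 of the 97 nearer to it. The spread between arrays was not alike in the groups. The SD over the 3 AD arrays had a median of 0.26 on the log2 scale in these probes, and 0.29 over all tested probes. Over the 3 sham arrays it was 0.52 in these probes and 0.33 over all tested probes. The tested probes are mostly brighter, while the rule chose sham signals that were not called detected. Repeat spots of linear probes also spread more below the limit, as given above. Nothing about the groups is therefore read from this spread.

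The log2 difference fitted by limma, AD minus sham, was 0.30 to 3.50 in the 140 probes, with a median of 1.19, against a median of 0.00 over all tested probes. It uses sham signals under the limit as they are, where the bound raises them to it, so it was at or above the log2 of the bound in every one of the 140. For 38 of the 420 sham spots of these probes, in 27 probes, the software gave a processed signal of 1.98 to 3.16 that did not follow the background-subtracted signal, which was -7.40 to 2.83. Over the 113 probes without such a spot the median difference was 1.09. At least 2-fold with an unadjusted p under 0.05 from limma was passed on the higher side by 93 of the 140 probes, where 8.85% of all 11580 tested probes did so. An adjusted p under 0.05 from limma was passed by 40, where 1.79% of all tested probes did so. Since the probes were chosen by this contrast, these counts support nothing beyond the choice. Without sham 1 the adjusted p was passed by 93 of the 140, without AD 2 by 3, without AD 1 by 1, and by 0 when AD 3, sham 2 or sham 3 was left out. In these last fits 86, 96 and 90 had an unadjusted p under 0.05. The share of all tested probes past each threshold in the fits with an array left out is not given here. Whether these shifts concern the 140 or the whole array therefore cannot be told.

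In the deposited table of log2 values, made by the authors from the same arrays, all 140 probes were present. Their AD minus sham difference there was -0.03 to 1.70, with a median of 0.34, against a median of -0.06 over all 11580 tested probes. It was above 0 in 139 of the 140. The share of all tested probes above 0 in this table is not given here. The rule used this contrast, so nothing is read from the 139. The difference reached 1, which is 2-fold, in 8 of the 140 or 5.71%, against 5.27% of all 11580 tested probes. All 8 were among the 18 probes at 2 times the limit or more. All AD arrays were above all sham arrays in 94 of the 140, where 12.9% of all tested probes had this in the same table. ASCRPR003430 was at 7.59, 5.82 and 6.65 on the AD arrays and at 5.16, 4.95 and 4.84 on the sham arrays, a difference of 1.70. ASCRPR013671 was at 5.93, 6.43 and 6.09 against 4.95, 5.05 and 4.96, a difference of 1.17. In both the groups were apart in this table too, and both differences were under the log2 of the bound from the scaled processed signal, 2.89 and 2.25.

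What the numbers of detected probes contribute to the AD pattern was described by taking the same number of probes as detected on every array, ranked by processed signal. With the 10864 brightest probes of each array, the lowest of the 6 numbers, 84 probes were detected in AD only and 74 in sham only. With the 12021 brightest, the highest of the 6 numbers and a setting chosen after the data were seen, 47 were detected in AD only and 63 in sham only. The order of the groups therefore turned with this choice, while by the software's flag it was 140 against 22. Of the 140 probes, 69 were detected in AD only with 10864 probes per array and 24 with 12021. With 10864 per array, 48 of the 140 were no longer detected on AD 2, 34 on AD 3 and 17 on AD 1, and 3 were now detected on sham 1. The probes far from the limit were less affected, which on the AD arrays follows from the ranking by signal. The lowest signal taken as detected became 10.1, 14.7 and 12.0 on AD 1 to AD 3, where the limits were 8.63, 9.80 and 9.38. The counts by margin are therefore a description only. The AD pattern kept 16 of the 18 probes at 2 times the limit or more, 24 of the 25 at 1.5 to 2 times, 28 of the 58 at 1.2 to 1.5 times and 1 of the 39 under 1.2 times. Among the 20 patterns of 3 arrays, the AD pattern was still the most frequent at 10864 per array, followed by the sham pattern and then by AD 2, sham 2 and sham 3 with 66.

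By other forms of the software's own call, AD-only probes outnumbered sham-only probes. By the positive and significant flag they were 56 and 7, and 1 of the 56 was among the 140, since that flag is already met by most of the 140 on the sham arrays. With the further condition of at least 2 times the limit on every array of the detecting group, they were 18 and 2. The 22 sham-only probes had a mean sham signal of 12.3 to 43.8, with a median of 18.1, and a mean AD signal of 3.72 to 9.33. Their bound, sham over AD, was 1.17-fold to 3.91-fold, with a median of 1.65-fold, close to the 1.57-fold of the AD-only probes. A test of the difference between the numbers of the groups was not made, since a group has 3 arrays and the probes of an array share its background and its labelling.

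**Figure D5:**
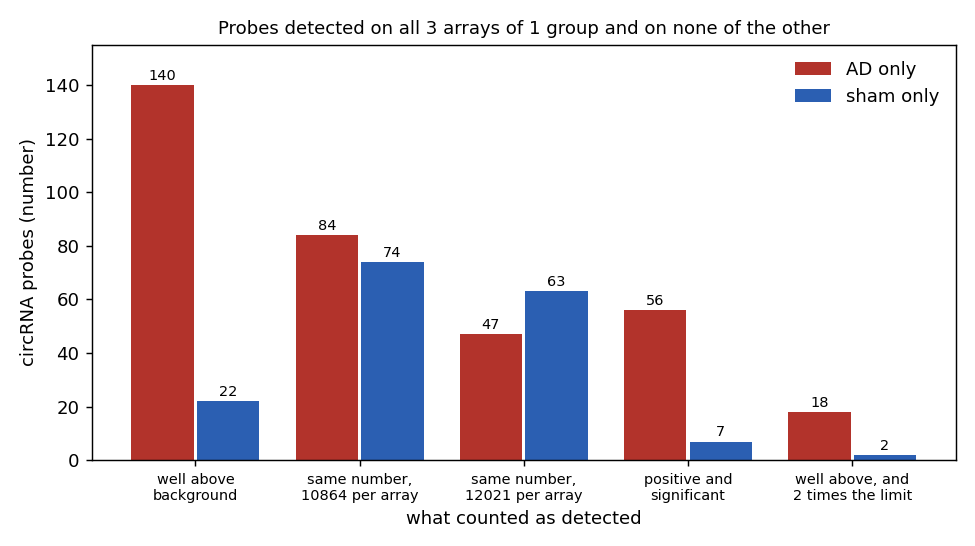
Number of circRNA probes (y axis) detected on all 3 arrays of a group and on none of the other, AD only in red and sham only in blue, by what counted as detected (x axis). The counts are 140 and 22 by the software's flag, 84 and 74 with 10864 probes per array, and 47 and 63 with 12021.

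The 140 probes were found in all parts of the array. With its rows cut into 4 bands of equal height, 27, 48, 32 and 33 of them lay in the bands from top to bottom, which is 19.3%, 34.3%, 22.9% and 23.6%, where the tested probes had 24.6%, 24.9%, 25% and 25.4%. The second band held the most. The median local background around their spots equalled that of all circRNA probes on each array, 17 on the AD arrays, 16 and 17 on sham 1 and sham 2 and 28 on sham 3.

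The sets nearest to the rule were the probes detected on all 3 AD arrays and on 1 sham array. Where this was sham 1, their mean AD signal was 9.92 to 367, with a median of 17.0, and their log2 difference had a median of 0.92. In this set of 225 the signal of sham 1 had a median of 1.59 times its limit, and in 95 it was under 1.5 times. The 96 probes in which sham 2 or sham 3 was the detecting sham array had a median AD signal of 14.8, nearer to the 14.6 of the 140, and a median log2 difference of 0.60, farther from their 1.19. These sets differ from the 140 by the call on 1 sham array.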

How the data were processed

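Each of 6 Arraystar rat circRNA arrays (8x15K) measured RNase R-treated, Cy3-labelled hippocampal RNA, 3 AD and 3 sham. Per the file headers, the authors' software for spot extraction was Feature Extraction version 11.0.1.1. The deposited scanner values are intensities, with a background-subtracted processed signal, a spot error and flags for each spot. The authors also deposited a table of log2 values, with its normalization not given in the sources used here. The submitters' processing notes name limma without its role.

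The members and lists were chosen with earlier results of these data known. Analysis used R 4.3.3 and limma 3.58.1. Flagged spots were removed, repeat spots averaged and 536 control spots left out. Processed signals were put on the log2 scale, and the 75th percentile over 14227 probes was subtracted within each array. limma compared AD with sham over 11580 circRNA probes, those detected on 3 or more arrays, with Benjamini-Hochberg adjustment, and its code was tested on simulated data. A linear probe counted as detected with most of its spots well above background. The rule for naming probes, fixed for the case that no table pairs them with names, gave the pair with the largest fold bounds. Accessions of linear probes were matched to the RefSeq gene table of GRCr8, which named 39 of 62. Precision is limited by the number of arrays. The p-values reflect only how far these samples spread, which may be technical. Alternatives were other definitions of detection, normexp (offset 50) on the median signal, the deposited table, quantile normalization, scaling by the median or none, another limit for the bound, no filter, a variance trend, the methods' t-test, the replicate number and the slide as blocks, and each array left out.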

Additional observations from a re-analysis of the deposited data

Results flagged for a closer look

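The probes of linear transcripts lie outside the circRNA measurement. Of 62, 1 was detected only in AD, that of Rpl13a, a protein of the large ribosomal subunit, and 0 only in sham. This is 1.61% of the linear probes, where 0.99% of the 14133 circRNA probes had the AD-only pattern. The mean signal of its spots was 12.8, 11.4 and 12.6 on AD 1 to AD 3 and 3.33, 7.17 and 5.56 on sham 1 to sham 3. The share of its spots well above background was 1 on AD 1, 0.7 on AD 2, 0.875 on AD 3 and 0 on each sham array. It is given here because the circRNA comparison does not use these data. The probe was picked by its AD-only pattern, so nothing about the circRNA probes is read from it.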

How the results depend on the processing

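The count of 140 depended on what counted as detected. It was 56 by the positive and significant flag, 84 with the lowest and 47 with the highest equal number per array, and 18 at 2 times the limit, while keeping flagged spots left it at 140. Leaving out 1 array removes a condition of the rule, so the count could only stay or rise. It was then 161 to 365, the most without sham 1. The median log2 difference of 1.19 became 0.25 with normexp and 0.34 with the deposited table, and was 1.101 to 1.38 with 1 array left out. The offset of 50 makes the fold of dim probes smaller by construction. The median bound became 1.15 with the 5th percentile as the limit, and was 1.45 to 1.69 with 1 array left out. The 119 probes without overlap became 25 with normexp. Leaving out 1 array can only keep or raise this number by construction, and it was then 119 to 140. The 93 at 2-fold and an unadjusted p under 0.05 became 70 with the methods' t-test, the test behind the study's own threshold, 1 with normexp and 8 with the deposited table, and were 71 to 99 with 1 array left out. The 40 past an adjusted p under 0.05 became 25 with quantile normalization, 25 without scaling, 16 with the deposited table, 15 without a filter and 1 with normexp, and were 0 to 93 with 1 array left out. None (0) passed with the methods' t-test, the slide as a block or the replicate number as a block, where 87, 90 and 124 had an unadjusted p under 0.05. Sham 3 was alone on its slide, so the slide block repeats the fit without sham 3 and is no separate check. The share of all tested probes past these thresholds in each alternative setting is not given here, so the counts describe the 140 only. Deviations from the group means correlated at 0.173, 0.189 and 0.0288 between arrays of equal number. Values for arrays of unequal number are not given here, so these do not decide whether arrays were paired. No pairing was assumed in the main fit. A filter on all 6 arrays could give no value, since no member passes it. The log2 difference of ASCRPR003430, 3.20, became 1.08 with normexp and 1.70 with the deposited table. It was 2.65 to 3.75 with 1 array left out. That of ASCRPR013671, 2.56, became 0.72 with normexp and 1.17 with the deposited table, and was 2.38 to 2.72 with 1 array left out. The median AD minus sham difference kept its sign in these settings, but AD-only probes outnumbered sham-only probes by the software's flag and not with the highest equal number per array, where they were 47 against 63. The cause was not tested. Signal over background limits what can be said of the 97 probes under 1.5 times the limit.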
